A study of Homo sapiens with 6 samples.

Results

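Carnitine palmitoyltransferases and the enzymes of mitochondrial fatty acid oxidation were described in HEK-293T cells with and without reflectin A1 (RfA1), a squid protein of the light-reflecting Bragg lamellae. Of the 16655 genes in the deposited table, 10 were taken by symbol and all 10 were found. They were CPT1A, CPT1B, CPT1C, CPT2, SLC25A20, ACADM, ACADVL, HADHA, HADHB and CHKB. CPT1B was chosen by its own result in this comparison, which edgeR's test placed at -0.66 on the log2 scale (adjusted p = 0.0221), and the other 9 were added by function or, for CHKB, by position. The values of CPT1B between the groups are therefore a description and support nothing by themselves. HEK-293T cells descend from human embryonic kidney and express the large T antigen of SV40. Cells were transfected by lipofection with the empty GFP vector pEGFP-C1 (control, 3 libraries) or with the same vector carrying GFP-tagged RfA1 (3 libraries), were harvested 24 h later with trypsin, and no sort for GFP-positive cells is described, so that untransfected cells may be included. Both groups thus carried the reagent, the vector and GFP. The labels do not say that the libraries of a group came from separate cultures, so that p-values measure the spread between these libraries only, and in these bulk samples fewer expressing cells and less RNA per cell cannot be told apart.

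Long-chain fatty acids are burned inside mitochondria but cannot cross the inner membrane as acyl-CoA. CPT1, on the outer membrane, moves the acyl group to carnitine and is the controlled step of the pathway, since malonyl-CoA inhibits it. SLC25A20 carries acylcarnitine across the inner membrane, and CPT2 turns it back into acyl-CoA. The dehydrogenases ACADVL and ACADM and the trifunctional protein of HADHA and HADHB then shorten the chain in repeated cycles. CPT1A is known as the liver isoform and is also common in other tissues, CPT1B is the muscle and heart isoform, and CPT1C is the brain isoform, which sits in the endoplasmic reticulum and has little transferase activity. CHKB, a choline kinase of phosphatidylcholine synthesis, has no role in the pathway and is the upstream neighbour of CPT1B, with which it can form a readthrough transcript.

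The total estimated counts of the libraries ran from 10272304 to 11566287. Across genes, log2 CPM changed with the GC content of the transcript, by -0.0376, 0.129 and 0.0808 per 10 percentage points of GC in GFP libraries 1, 2 and 3 and by -0.113, 0.0911 and -0.15 in RfA1 libraries 1, 2 and 3. RfA1 library 2 was thus on the side of GFP libraries 2 and 3, and GFP library 1 on the side of RfA1 libraries 1 and 3. All 12 of the listed genes known from HEK-293 lines, such as VIM, KRT8 and NEFL, had a mean of at least 1 TPM. Of 12 muscle markers, 3 reached 1 TPM (ACTA1, TNNI3 and MYOD1), and the summed level of the list was 23.9 to 33.5 TPM in GFP and 22.0 to 33.6 TPM in RfA1 libraries. The others of this list, CKM, MB, MYH6, MYH7, MYOG, TNNT2, TNNT3 and TTN, had means below 1 TPM in both groups, and MYL2 was not in the table. Of 8 hepatocyte markers 1 reached 1 TPM (APOA1), with list sums of 1.32 to 2.16 and 0.74 to 1.73 TPM. Of 8 neuron markers 4 did (SYT1, RBFOX3, TUBB3 and GAD1), with sums of 37.4 to 41.9 and 37.3 to 42.0 TPM, and of 8 blood and stroma markers 1 did (CD14), with sums of 1.95 to 2.14 and 1.45 to 2.17 TPM. These lists had overlapping ranges in the groups.

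All 10 genes were expressed. Levels were compared between genes in TPM, which is per transcript length. In GFP cells the 2 highest levels were those of HADHA (107 ± 3.60 TPM, SD, n = 3) and ACADVL (107 ± 2.21 TPM), whose ranges overlapped. ACADM (49.1 ± 6.56 TPM), HADHB (42.1 ± 6.05 TPM) and CHKB (37.2 ± 1.63 TPM) followed, and the range of HADHB overlapped those of ACADM and CHKB. CPT2 (30.8 ± 0.166 TPM), CPT1B (23.6 ± 0.621 TPM), SLC25A20 (12.7 ± 1.45 TPM), CPT1A (10.5 ± 0.455 TPM) and CPT1C (3.29 ± 0.350 TPM) came below them, and no 2 neighbours among these 5 overlapped. Gene by gene, the members of the carnitine steps thus had lower mean levels than ACADVL, ACADM, HADHA and HADHB. In RfA1 cells the order was the same except that CHKB (30.2 ± 2.06 TPM) and CPT2 (31.1 ± 2.15 TPM) had overlapping ranges and changed places.

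**Figure D1:**
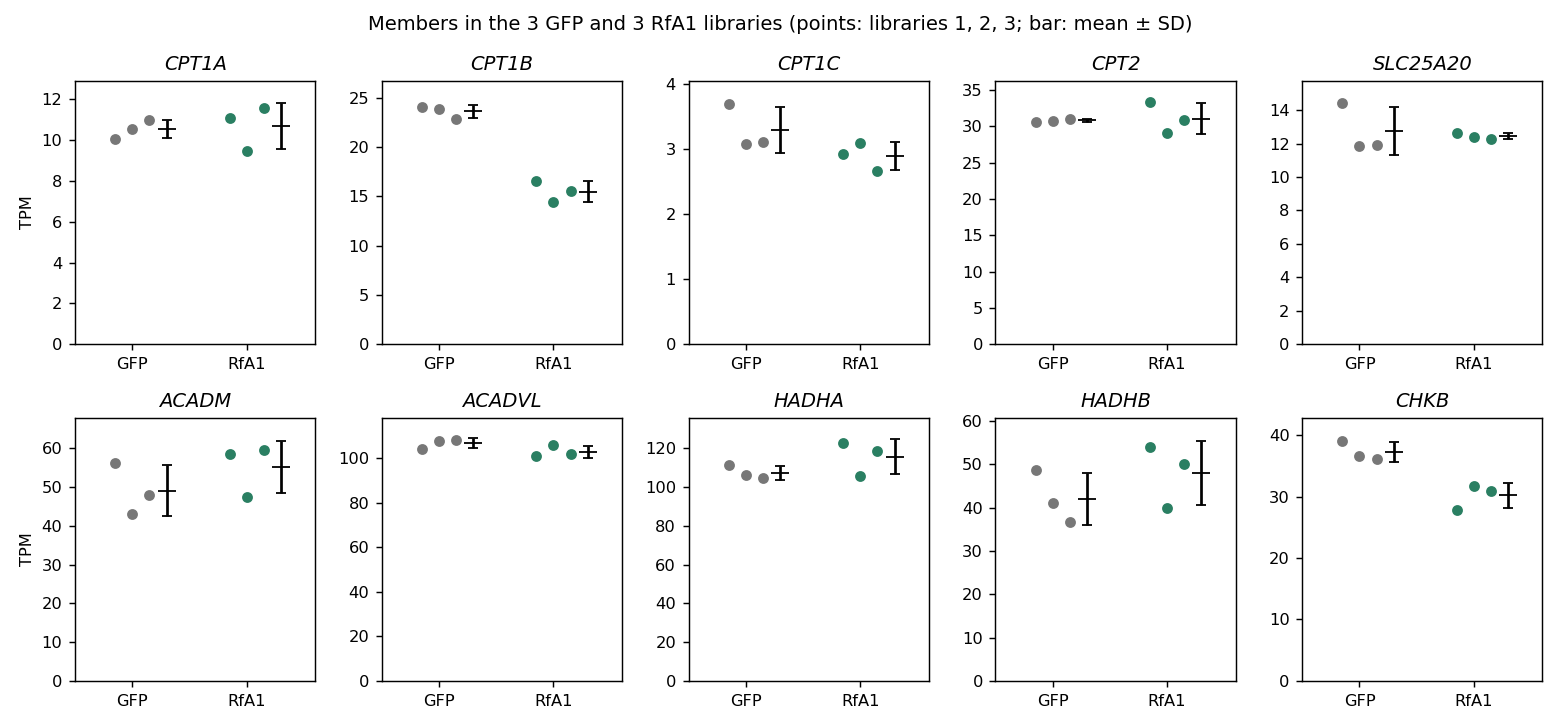
Level in TPM (vertical axes, from 0) of the 10 genes in GFP libraries 1 to 3 (grey points) and RfA1 libraries 1 to 3 (green points), with the mean ± SD beside them. CPT1B lay at 22.9 to 24.0 TPM in GFP and 14.4 to 16.5 TPM in RfA1 libraries, and CHKB at 36.0 to 39.1 and 27.9 to 31.8 TPM, while CPT1A, CPT2 and the enzymes of the cycle overlapped between the groups.

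CPT1B (Gene ID 1375, chr22:50568861-50578465, minus strand, GRCh38) was the member with the largest difference. Its estimated counts were 474, 501 and 469 in GFP libraries 1, 2 and 3 and 308, 283 and 277 in RfA1 libraries 1, 2 and 3. In TPM it stood at 24.0, 23.9 and 22.9 in GFP and at 16.5, 14.4 and 15.5 in RfA1 libraries. All 3 RfA1 libraries were below all 3 GFP libraries on both scales, and within each group the library values were close to each other. In CPM, counts scaled to a TMM-normalized library size, its coefficient of variation was 3.29% among GFP and 3.06% among RfA1 libraries. The GFP mean was 42.8 ± 1.41 CPM and the RfA1 mean 27.1 ± 0.830 CPM (SD, n = 3 each), which gave a log2 fold change of -0.66 (standard error 0.087, 95% interval -0.85 to -0.46), or 0.635 times the GFP level. It had rank 5 by p among the 10 genes past the adjusted p of 0.05, which is 0.0769% of the 13002 genes tested. Among the 10 members only CPT1B was inside the threshold (adjusted p = 0.0221 from edgeR). CHKB came next, well outside it (adjusted p = 0.247 from edgeR). With each transcript's GC content corrected for in each library, the log2 fold change of CPT1B was -0.56. Leaving out 1 library in turn gave log2 fold changes of -0.68 to -0.63, with an edgeR adjusted p of 0.000752 without RfA1 library 2 and 0.0961 to 0.244 without any other library.

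CPT1A (Gene ID 1374, chr11:68754620-68844410, minus strand), the isoform of liver and many other tissues, had counts of 355, 427 and 403 in GFP and 401, 370 and 373 in RfA1 libraries. Its levels were 10.1, 10.6 and 11.0 TPM in GFP and 11.1, 9.45 and 11.6 TPM in RfA1 libraries, and the groups overlapped. The log2 fold change was 0.028, with a 95% interval of -0.18 to 0.23 (Benjamini-Hochberg adjusted p = 0.904, edgeR), and it was -0.036 without GFP library 1. CPT1A was the 1 member whose deposited counts were not whole numbers, in all 6 libraries, and how the authors' counting arrived at such values is not given in the sources used here.

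CPT1C (Gene ID 126129, chr19:49690898-49713731, plus strand), the brain isoform, had the lowest counts of the 10 genes, 70, 62 and 61 in GFP and 52, 56 and 45 in RfA1 libraries. Its levels were 3.69, 3.07 and 3.10 TPM in GFP and 2.92, 3.09 and 2.66 TPM in RfA1 libraries. In TPM RfA1 library 2 lay within the GFP range, whereas in CPM (6.30, 5.47 and 5.39 against 4.73, 5.34 and 4.29) the groups did not overlap by a small margin. The log2 fold change was -0.26 with a wide 95% interval of -0.61 to 0.10 (adjusted p = 0.475 from edgeR), and -0.13 after the GC correction. This interval includes the log2 fold changes of CHKB and CPT1A as well as 0.

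Counted together, the 3 CPT1 genes summed to 37.8, 37.6 and 37.0 TPM in GFP and 30.5, 26.9 and 29.8 TPM in RfA1 libraries. CPT1B made up 63.6%, 63.7% and 61.9% of the sum in GFP and 54.2%, 53.5% and 52.2% in RfA1 libraries. By TPM, the isoform known from muscle was thus the most abundant CPT1 transcript in every library of this kidney-derived line. In counts, which are not per length, CPT1B was above CPT1A in the GFP libraries. It was below CPT1A in the RfA1 libraries (308, 283 and 277 against 401, 370 and 373). Whether reads of a CHKB-CPT1B readthrough transcript are among those of CPT1B is not known here. CPT1A made up 28.2% ± 1.52 (SD, n = 3) of the sum in GFP and 36.8% ± 1.96 in RfA1 cells, and CPT1C 8.77% ± 0.863 and 9.99% ± 1.32. The ratio of CPT1B to CPT1A TPM was 2.38, 2.26 and 2.08 in GFP and 1.49, 1.52 and 1.34 in RfA1 libraries. These shares contain the difference for which CPT1B was chosen and were not tested.

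**Figure D2:**
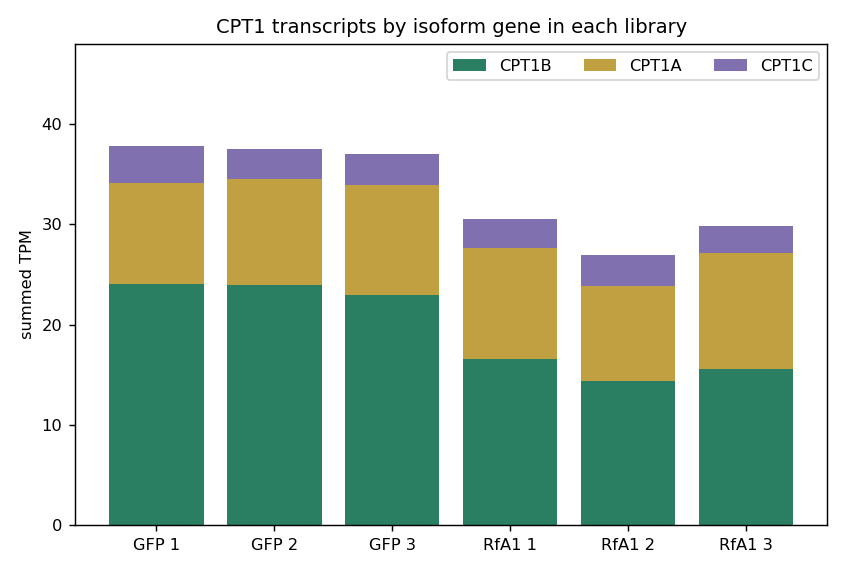
Summed TPM of the 3 CPT1 genes (vertical axis, from 0) in each GFP and RfA1 library, with CPT1B in green, CPT1A in yellow and CPT1C in purple. The sums were 37.0 to 37.8 TPM in GFP and 26.9 to 30.5 TPM in RfA1 libraries, with CPT1B at 22.9 to 24.0 TPM and 14.4 to 16.5 TPM of them.

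Downstream of CPT1 the carnitine carrier and CPT2 did not differ beyond the spread between libraries. CPT2 (Gene ID 1376, chr1:53196429-53214197, plus strand), the inner-membrane transferase, stood at 30.6, 30.8 and 31.0 TPM in GFP and 33.3, 29.1 and 30.8 TPM in RfA1 libraries. The GFP libraries were nearly level, and the RfA1 libraries lay on both sides of them. Its log2 fold change was -0.045 (95% interval -0.23 to 0.14, adjusted p = 0.814 from edgeR). In log2(TPM + 1) it was 0.010, on a scale where the median of all genes was 0.045. SLC25A20 (Gene ID 788, chr3:48856931-48898993, minus strand), the carnitine-acylcarnitine translocase, stood at 14.4, 11.9 and 11.9 TPM in GFP and 12.6, 12.4 and 12.3 TPM in RfA1 libraries. GFP library 1 was the high value and the other 5 libraries lay close together. Its log2 fold change was -0.091 (95% interval -0.35 to 0.16, adjusted p = 0.734 from edgeR). The ratio of CPT2 to summed CPT1 TPM, which contains the CPT1B difference, was 0.822 ± 0.0136 in GFP and 1.07 ± 0.0300 in RfA1 cells (SD, n = 3 each).

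The 4 enzymes of the cycle did not pass the test either. ACADVL (Gene ID 37, chr17:7217125-7225273, plus strand), the very-long-chain acyl-CoA dehydrogenase, had 145, 158 and 154 CPM in GFP and 134, 154 and 135 CPM in RfA1 libraries. ACADM (Gene ID 34, chr1:75724347-75787575, plus strand), the medium-chain dehydrogenase, had 82.7, 66.8 and 72.1 CPM in GFP and 81.5, 72.4 and 82.6 CPM in RfA1 libraries. For both genes the groups overlapped, while libraries on the same side of the GC trend were alike. The sides come from the GC trend over all genes, and the share of genes divided in this way was not counted. The transcript of ACADM has 41.0% GC, and the 3 libraries with a negative GC slope (GFP 1, RfA1 1 and RfA1 3) had 81.5 to 82.7 CPM against 66.8 to 72.4 CPM in the other 3. That of ACADVL has 58.6% GC, and it was lower in those libraries, 134 to 145 CPM against 154 to 158 CPM. The log2 fold changes between the groups were 0.095 for ACADM (95% interval -0.12 to 0.31, adjusted p = 0.659 from edgeR) and -0.11 for ACADVL (95% interval -0.30 to 0.072, adjusted p = 0.539). After the GC correction they were 0.001 and -0.001, and the standard errors went from 0.098 to 0.062 and from 0.085 to 0.054.

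HADHA and HADHB, the subunits of the trifunctional protein, lie head to head on chromosome 2, and their gene bodies overlap by 1557 bases in GENCODE 29 (HADHA, Gene ID 3030, chr2:26190635-26244726, minus strand; HADHB, Gene ID 3032, chr2:26243170-26290468, plus strand). The RefSeq start sites in GRCh38.p14 are 306 bases apart, so that the 250 bases before each start share 194 bases. They are shown 5′ to 3′ on each gene's own strand because 1 stretch of DNA lies before both starts. Matches to the GC box GGGCGG on either strand are in capitals.
HADHA, chr2:26244633-26244882, minus strand: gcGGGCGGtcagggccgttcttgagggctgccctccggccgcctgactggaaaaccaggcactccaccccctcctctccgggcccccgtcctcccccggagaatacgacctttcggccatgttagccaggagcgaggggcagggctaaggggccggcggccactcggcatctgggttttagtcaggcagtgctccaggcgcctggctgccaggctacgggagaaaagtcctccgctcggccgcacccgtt
HADHB, chr2:26244689-26244938, plus strand: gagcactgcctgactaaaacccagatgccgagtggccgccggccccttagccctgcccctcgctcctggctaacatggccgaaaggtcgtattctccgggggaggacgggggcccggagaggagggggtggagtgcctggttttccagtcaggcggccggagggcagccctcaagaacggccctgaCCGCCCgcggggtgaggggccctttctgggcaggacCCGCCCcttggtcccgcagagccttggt
The match that begins 248 bases before the HADHA start is the one that begins 64 bases before the HADHB start. HADHA had 214, 215 and 205 CPM in GFP and 225, 212 and 216 CPM in RfA1 libraries, and HADHB had 61.0, 54.3 and 47.4 CPM in GFP and 64.4, 52.4 and 59.5 CPM in RfA1 libraries. The groups overlapped for both genes. The log2 fold changes were 0.043 (95% interval -0.12 to 0.21, adjusted p = 0.804 from edgeR) and 0.12 (95% interval -0.13 to 0.36, adjusted p = 0.631). There were 3.51, 3.96 and 4.32 counts of HADHA for each count of HADHB in GFP and 3.49, 4.04 and 3.63 in RfA1 libraries. HADHB (46.6% GC) was above 59 CPM in the 3 libraries with a negative GC slope and at 47.4 to 54.3 CPM in the other 3, and its log2 fold change after the GC correction was 0.069. HADHA (49.6% GC) had no such division. The members outside the cycle had none either. For CPT1C (59.8% GC), CHKB (59.6%) and CPT1B (57.4%) none could appear, since their groups did not overlap in CPM and each side held both groups. The GC correction moved their log2 fold changes from -0.26, -0.36 and -0.66 to -0.13, -0.23 and -0.56.

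CHKB (Gene ID 1120, chr22:50578949-50601455, minus strand) had counts of 377, 379 and 362 in GFP and 254, 303 and 268 in RfA1 libraries. In CPM it stood at 33.9, 33.4 and 32.0 in GFP and at 23.1, 28.9 and 25.5 in RfA1 libraries. All 3 RfA1 libraries were lower than all 3 GFP libraries, as for CPT1B, with RfA1 library 2 nearest to them. The log2 fold change was -0.36 (standard error 0.10, 95% interval -0.58 to -0.13, unadjusted p = 0.00502), and CHKB did not pass the adjusted p over all genes (0.247 from edgeR). Without RfA1 library 2 it passed at -0.44 on the log2 scale (edgeR adjusted p = 0.00659), in a fit in which 20.1% of all genes passed. After the GC correction the log2 fold change of CHKB, whose transcript has 59.6% GC, was -0.23 (adjusted p = 0.186). The ratio of CPT1B to CHKB counts was 1.26, 1.32 and 1.30 in GFP and 1.21, 0.934 and 1.03 in RfA1 libraries. It was lower in every RfA1 library than in every GFP library, but it contains the difference for which CPT1B was chosen and was not tested.

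CPT1B and CHKB lie in the same direction on the minus strand of chromosome 22, CHKB upstream, with 483 bases between the gene bodies of GENCODE 29. That annotation also holds a CHKB-CPT1B readthrough gene over both, which has no row of its own in the table used here, and how reads of such a transcript were assigned is not given in the sources used here. No entry for the CPT1B promoter was found in the RefSeq promoter table. The 250 bases before the RefSeq start of CHKB are shown because CHKB is the upstream gene of the pair, with CCAAT boxes (CCAAT, or ATTGG on the other strand) and GC boxes (GGGCGG, or CCGCCC) in capitals.
CHKB, chr22:50582850-50583099, GRCh38.p14, minus strand: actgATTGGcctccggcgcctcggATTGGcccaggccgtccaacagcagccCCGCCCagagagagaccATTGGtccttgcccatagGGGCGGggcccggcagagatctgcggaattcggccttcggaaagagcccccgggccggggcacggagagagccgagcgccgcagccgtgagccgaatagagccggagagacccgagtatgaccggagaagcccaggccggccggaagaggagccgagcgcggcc
This window holds 3 CCAAT boxes, which begin 246, 226 and 182 bases before the start, and 2 GC boxes, at 199 and 164 bases. Of all 34943 RefSeq promoter windows of this length, 32.0% hold a CCAAT box and 42.5% a GC box. Windows were found for 9 of the 10 genes, and in addition to CHKB a window of CPT1C held CCAAT boxes. A GC box was found in at least 1 window for 8 of the 9, the exception being CPT1A. This count is per gene, whereas the shares above are per window, and ACADVL and CPT1C have more than 1 window. The match of HADHA is also a match of HADHB. The PPAR response element, searched as AGGTCA repeated in the same direction with 1 base of any kind between, which PPAR receptors are known to bind in fatty acid oxidation genes, was in none of the members' windows (0.0172% of all windows), nor was the ERR element TCAAGGTCA (0.321%) or the NRF1 element (1.02%). The ETS element CCGGAAGT was in the window of CPT2 and in 3.39% of all windows. These are letter matches on either strand and not measured sites.

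The 12 nearest genes of the table around CPT1B, 6 on each side, were read from the same fit. Besides CHKB, 9 were tested, and their log2 fold changes ran from -0.38 (ARSA) to 0.12 (KLHDC7B). Of the 9, 8 were negative, as were 6563 of the 13002 genes tested, and 6 were negative after the GC correction. ARSA, which encodes the lysosomal arylsulfatase A, had 35.1, 45.8 and 42.4 CPM in GFP and 31.1, 32.8 and 30.9 CPM in RfA1 libraries and was the 1 of the 9 whose groups did not overlap, against 8.01% of all genes that were lower in this way (adjusted p = 0.243 from edgeR). MAPK8IP2, between CHKB and ARSA, had a log2 fold change of -0.30 (unadjusted p = 0.0254, adjusted p = 0.316 from edgeR). After the GC correction ARSA stood at -0.18 and MAPK8IP2 at -0.090, and the 9 genes ran from -0.18 to 0.31. CPT1B at -0.56 lay outside this range after the correction and CHKB at -0.23 lay just below it. SYCE3 and ACR, with at most 8 counts in a library, were not tested.

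**Figure D3:**
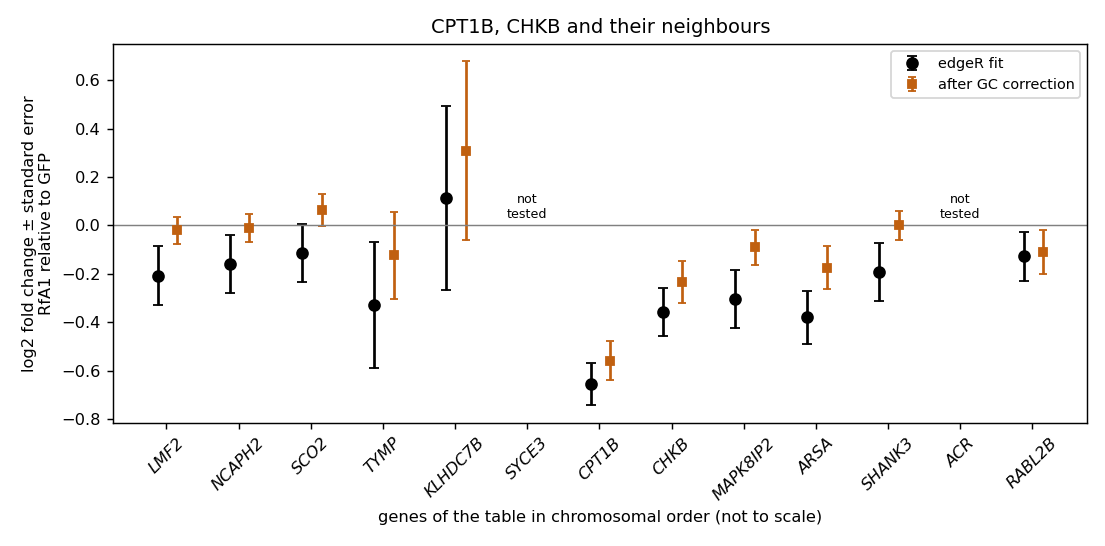
Log2 fold change of RfA1 relative to GFP (vertical axis, ± standard error) for the genes around CPT1B in chromosomal order, from the edgeR fit (black) and after the GC correction (orange). CPT1B stands lowest at -0.66 and -0.56, CHKB at -0.36 and -0.23, and LMF2, NCAPH2, SCO2 and SHANK3 move to between -0.021 and 0.065 with the correction.

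Over the 10 members together, 1 passed the adjusted p, CPT1B, which was picked for it, against 0.0769% of all genes. At an unadjusted p of 0.05 there were 2, CPT1B and CHKB, both lower with RfA1, against 13.9% of all tested genes in either direction and 6.64% lower. In 3 of the 10 (CPT1B, CHKB and CPT1C) all RfA1 libraries were lower in CPM than all GFP libraries, against 8.01% of all genes, and in 0 were they all higher, against 9.86%. Of the 8 members that belong to the pathway besides CPT1B, none had an unadjusted p under 0.05 in edgeR's test and none passed in DESeq2. The median log2 fold change of the 10 was -0.068, and that of all tested genes was -0.002. The counts over the 10 and this median contain CPT1B, which was chosen for its difference. Of the 9 members without it, 1 had an unadjusted p under 0.05 in edgeR's test, lower with RfA1, against 6.64% of all genes. In 2 of the 9 all RfA1 libraries were lower in CPM, against 8.01%, in 0 all were higher, against 9.86%, and the median was -0.045.

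**Figure D4:**
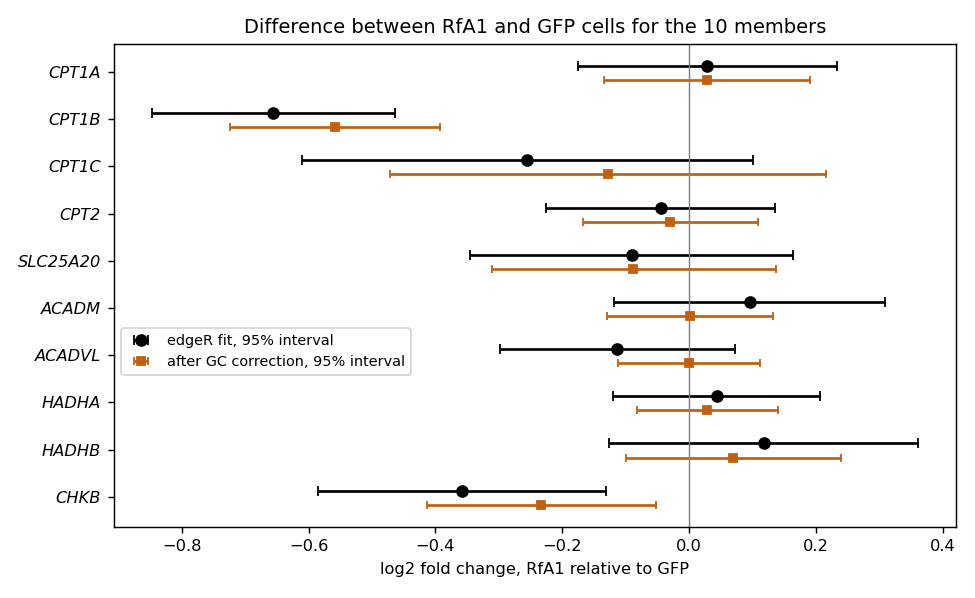
Log2 fold change of RfA1 relative to GFP (horizontal axis) of the 10 genes with 95% intervals, from the edgeR fit (black circles) and after the GC correction (orange squares). CPT1B at -0.66 and -0.56 stands apart from 0 in both fits, CHKB at -0.36 and -0.23, and the intervals of the other 8 genes include 0.

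To see whether other genes of fatty acid metabolism differed, 141 further genes were read from the same fit in 10 lists by role. Of these, 134 were in the table and 121 were tested. None passed the adjusted p in edgeR's test, in DESeq2 or in limma on log2 TPM, and 11 had an unadjusted p under 0.05, 6 higher and 5 lower, against 7.3% of all genes that were higher and 6.64% that were lower. The median log2 fold change of the 121 genes was 0.002. In 11 of them all RfA1 libraries were higher than all GFP libraries, against 9.86% of all genes, and in 7 all were lower, against 8.01%, shares close to or above those of the list. Without RfA1 library 2, 22 of the 121 passed the adjusted p, 10 higher and 12 lower, in the fit in which 20.1% of all genes did.

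Among the transcriptional regulators, 21 tested genes with a median log2 fold change of -0.044, PPARG (Gene ID 5468), a nuclear receptor best known from fat cells, had the smallest p. It stood at 21.8, 20.9 and 20.7 CPM in GFP and at 26.3, 26.7 and 27.2 CPM in RfA1 libraries. The libraries of each group were close together and the groups were well apart, and the log2 fold change was 0.34 (SE 0.093, unadjusted p = 0.00359), yet it did not pass over all genes (adjusted p = 0.234 from edgeR). Of the PPAR target list 9 of 17 genes were tested, and their median was 0.045. TXNIP, an arrestin-like protein that binds thioredoxin, had 23.4, 20.1 and 24.5 CPM in GFP and 33.5, 25.3 and 32.8 CPM in RfA1 libraries (log2 fold change 0.43, adjusted p = 0.250 from edgeR). ACOT1, an acyl-CoA thioesterase, had 4.77, 4.85 and 4.41 against 6.37, 6.96 and 5.72 CPM (log2 fold change 0.44, adjusted p = 0.286), and as a close copy of ACOT2 its reads are uncertain. UCP2, a carrier of the inner mitochondrial membrane, was on the other side, with 90.5, 94.8 and 89.8 against 82.9, 82.7 and 75.9 CPM (log2 fold change -0.19, adjusted p = 0.333).

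In the upstream lists, 13 genes of fatty acid uptake and activation had a median of -0.051. SLC27A6, a fatty acid transport protein, had 2.16, 1.5 and 2.03 CPM in GFP and 2.73, 2.76 and 2.76 CPM in RfA1 libraries (log2 fold change 0.54, standard error 0.23, adjusted p = 0.337 from edgeR), at a low level. The 6 tested genes of carnitine synthesis and uptake had a median of -0.008 and none with an unadjusted p under 0.05. ALDH9A1, which makes the precursor butyrobetaine, had the smallest p of them (log2 fold change 0.15, adjusted p = 0.449). Among 12 genes that set malonyl-CoA or sense energy through AMPK, with a median of 0.012, ACACB, the mitochondrial acetyl-CoA carboxylase whose product inhibits CPT1, had 21.4, 20.7 and 20.3 CPM in GFP and 20.3, 15.4 and 16.1 CPM in RfA1 libraries. RfA1 library 1 lay just below the lowest GFP library, and the log2 fold change was -0.26 (unadjusted p = 0.0495, adjusted p = 0.357 from edgeR).

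The 22 other mitochondrial beta-oxidation genes had a median of -0.018. HSD17B10, a dehydrogenase of branched-chain fatty acid and isoleucine breakdown, had 148, 171 and 167 CPM in GFP and 125, 161 and 129 CPM in RfA1 libraries (log2 fold change -0.23, adjusted p = 0.356 from edgeR), and the groups overlapped. Among the 6 genes of electron transfer, FLAD1, which makes FAD, had 95.5, 98.6 and 96.7 CPM in GFP and 84.0, 86.0 and 84.1 CPM in RfA1 libraries (log2 fold change -0.20, adjusted p = 0.306). ETFB, the beta subunit of the electron transfer flavoprotein that takes electrons from the acyl-CoA dehydrogenases, had 80.8, 94.9 and 93.6 against 68.7, 87.5 and 66.6 CPM (log2 fold change -0.27, adjusted p = 0.325). The other 4 genes of that list had positive log2 fold changes, and its median was 0.050.

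In peroxisomes, where very long chains are shortened, 15 genes had a median of -0.002. CROT, the carnitine octanoyltransferase that exports shortened chains, had 7.56, 7.59 and 6.89 CPM in GFP and 9.65, 8.77 and 9.72 CPM in RfA1 libraries (log2 fold change 0.35, adjusted p = 0.294 from edgeR). ABCD3, a fatty acid importer of the peroxisomal membrane, had 60.2, 48.5 and 57.7 against 73.6, 58.9 and 71.8 CPM (log2 fold change 0.30, adjusted p = 0.298), and RfA1 library 2 lay within the GFP range. Of 6 genes of ketone body metabolism, with a median of 0.10, BDH2 had the smallest p (log2 fold change 0.19, adjusted p = 0.408). For the pathway of CHKB, 12 genes of choline and ethanolamine phospholipid synthesis had a median of 0.047 and none had an unadjusted p under 0.05. PCYT2, of the ethanolamine branch, came nearest (log2 fold change -0.22, adjusted p = 0.398). CHKB and the other choline kinase gene, CHKA, summed to 57.6 ± 3.12 TPM in GFP and 52.1 ± 1.29 TPM in RfA1 cells (SD, n = 3 each), and CHKB made up 64.7% ± 0.664 of the sum in GFP and 58.0% ± 2.57 in RfA1 cells.

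**Figure D5:**
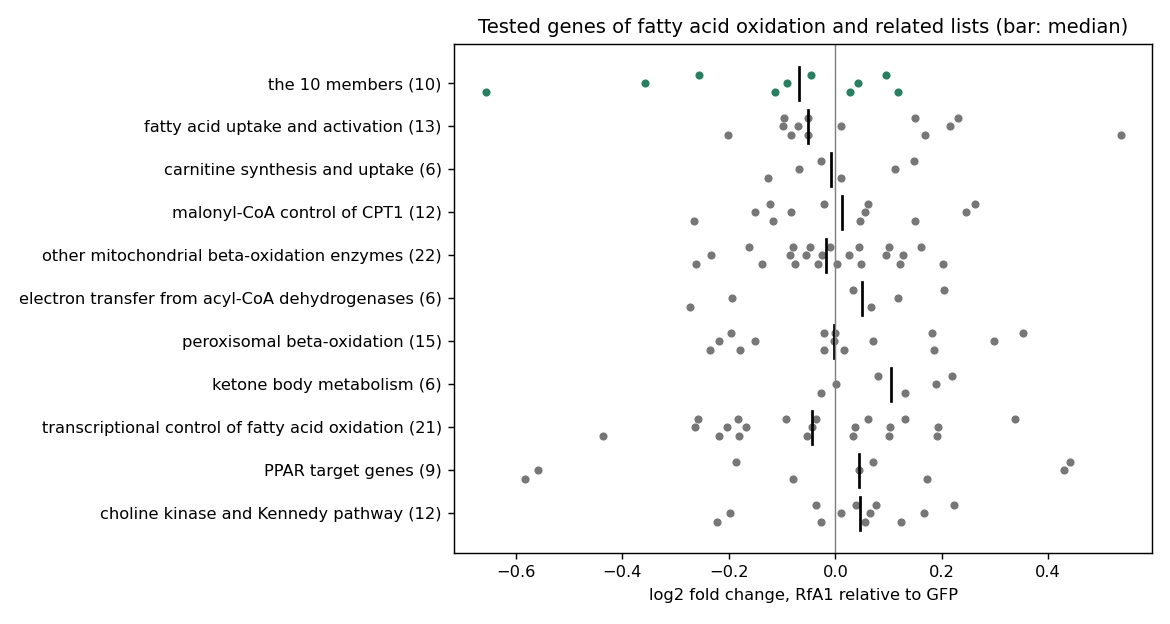
Log2 fold change of RfA1 relative to GFP (horizontal axis) for each tested gene of the 10 members (green) and of the 10 lists by role (grey), with the number tested in brackets and the median of each list as a bar. The medians of the lists lie between -0.051 and 0.10, and CPT1B at -0.66 is the lowest point.

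The genes whose pattern over the 6 libraries was most like that of CPT1B were found by Pearson's r of log2 CPM among tested genes whose mean log2 CPM was 1 or more. Among them were ZSWIM9 (r = 0.990), ELOVL1 (0.990), ZNF689 (0.990) and RTL10 (0.987). These values were taken over the 6 libraries of both groups together, so that r contains the difference for which CPT1B was chosen. In each of the genes just named all RfA1 libraries were lower in CPM than all GFP libraries, as in 8.01% of all tested genes. A high r says nothing of the size of a difference. ELOVL1, an elongase of very long fatty acids, had 87.5, 89.8 and 87.3 CPM in GFP and 79.5, 80.1 and 79.6 CPM in RfA1 libraries, and differed by -0.15 on the log2 scale (edgeR adjusted p = 0.394). Among the members, CHKB was the most alike (r = 0.864, place 356 of 12292 genes), then CPT1C (0.753) and ACADVL (0.610), and HADHA (-0.456), ACADM (-0.432), HADHB (-0.345) and CPT1A (-0.171) had negative values.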

How the data were processed

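RNA-seq libraries of GFP (n = 3) and RfA1 (n = 3) cells were grouped and numbered from the sample labels. The authors deposited 1 table with estimated counts that were not normalized (7.39% to 8.02% not whole), with the authors' TPM, scaled to the same total per library, and with the authors' FPKM. The submitters' processing notes name HISAT and GRCh38.p13, and the counting tool and annotation are not given in the sources used here. Deposited means of each unit were not used, and 0 other columns of libraries were left out.

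Estimated counts were rounded. filterByExpr (minimum count 10, minimum total 15) kept 13002 genes, which were TMM-normalized, and the groups were tested in edgeR 4.0.16 (R 4.3.3; glmQLFit, robust, and glmQLFTest), two-sided, with Benjamini-Hochberg adjustment and a threshold of 0.05. Alternatives used DESeq2 1.42.0 and limma 3.58.1 (log2(TPM + 1), so that fold changes of low genes are understated). The GC correction was a spline with 5 degrees of freedom per library on the GC content of 1 transcript per gene of GENCODE 29, which matched 98.3% of the genes. The biological coefficient of variation was 8.83%. Scripts were tested on simulated data.

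Members and lists were chosen with earlier results of these data known. Named were the members, up to 3 genes per list with an unadjusted p under 0.05 or else the one with the smallest p, the 5 genes most like CPT1B (1 of which is not reported here), the 6 nearest genes on each side of it, and markers of at least 1 TPM. Gene positions are those of GENCODE 29 (GRCh38), and promoter sequences are RefSeq's (GRCh38.p14). Same-numbered libraries are not stated to be paired. Figures were drawn with matplotlib 3.10.9.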

Additional observations from a re-analysis of the deposited data

How the results depend on the processing

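The log2 fold change of CPT1B was negative in all 15 alternatives, from -0.68 to -0.56, and its adjusted p passed in 9 of them. It did not pass in limma-trend on log2(TPM + 1) (adjusted p = 0.113) or without any 1 of the libraries other than RfA1 replicate 2 (0.0961 to 0.244). CHKB was negative in all 15, from -0.44 to -0.23, and passed in 2. CPT1A ran from -0.036 to 0.084 with 1 library left out and reversed at -0.036 without GFP replicate 1. CPT2 reversed to 0.010 in limma-trend, where the median of all genes was 0.045, against -0.002 in the main fit. ACADM, ACADVL, CPT1C, HADHA, HADHB and SLC25A20 kept their direction and did not pass in any of 15.

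Of the 10 members 1 passed, against 0 in limma-trend, 2 at an unadjusted p of 0.05 and 0 to 2 with 1 library left out. Of the pathway genes 0 passed, against 11 at an unadjusted p of 0.05, 2 with the GC correction and the replicate block together, and 0 to 22 with 1 library left out. Over all genes 10 passed, against 33 in DESeq2, 6 with upper-quartile normalization (4 higher and 2 lower, against 8 and 2), 20 without a filter, 4 in limma-trend, 194 with the GC correction, 439 with it and the replicate block, 1812 at an unadjusted p of 0.05, and 0 to 2636 with 1 library left out, the highest without RfA1 replicate 2. The causes were not tested. The higher and lower counts were 17 and 16 in DESeq2, 12 and 8 without a filter, 4 and 0 in limma-trend, and 137 and 57 with the GC correction.

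With the replicate number as a block, 625 genes passed, 309 higher and 316 lower, with 2 members (CPT1B and CHKB, adjusted p = 0.000109 and 0.0324 from edgeR) and 4 pathway genes (ABCD3, ETFB, PPARG and TXNIP) among them. Deviations of same-numbered libraries correlated by 0.166, 0.321 and -0.143 for numbers 1, 2 and 3. With 3 libraries in each group these values cannot decide whether same-numbered libraries were paired. With 1 library left out, the mean share of CPT1B in the CPT1 sum ran from 62.7% to 63.6% in GFP and from 52.8% to 53.8% in RfA1 libraries. Its ratio to CPT1A ran from 2.17 to 2.32 in GFP and from 1.42 to 1.51 in RfA1 libraries. FPKM in place of TPM cannot change a share or ratio within a library, so that setting tests nothing here. The CHKB-CPT1B readthrough could not be added, since it has no row here. With 45 to 70 counts per library, CPT1C had the widest interval of the members.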
